A study of Drosophila melanogaster with 2 samples.

Results

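The lncRNA genes lncRNA:CR44357, lncRNA:CR44619 and lncRNA:CR44999, which encode long noncoding RNAs on the X chromosome of Drosophila melanogaster, are described here by the peaks of a tagged transcription factor in them and within 10 kb of them. The genes were selected on the number of reproducible peaks at each locus, so their counts describe the choice and were not tested. They are 3 of 1945 annotated lncRNA genes. Together they hold 27 of the 3350 reproducible peaks on the dm6 genome build, namely 14 at lncRNA:CR44357, 5 at lncRNA:CR44619 and 8 at lncRNA:CR44999. Chromatin immunoprecipitation with sequencing (ChIP-seq) was done with an anti-GFP antibody on embryos of the Bteb2-GFP strain, pooled from both sexes at 4 to 20 h. All embryos carried the same transgene, in which Bteb2, the product of Klf15, is fused at its C-terminus to GFP. The 2 libraries form 1 group, with biological replicate numbers 1 and 3. They came from whole embryos of 1 transgenic line, so the cells in which the factor sat on DNA were not told apart. There was no second condition, and no control sample was analysed here. Sites of the factor were therefore not told apart from regions that other anti-GFP experiments recover.

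Klf15 is a zinc finger factor of the KLF family. Its relatives recognise GC-rich or CACCC boxes and can activate or repress nearby transcription. A lncRNA is a long transcript with no known protein product. Many lncRNA genes overlap protein-coding genes or share a start site with one, and a long lncRNA gene can hold whole neighbouring genes within its introns. A peak inside such a gene can therefore lie at the promoter of another gene. Assigning it to the nearest transcription start site (TSS) does not show which gene, if any, responds.

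Peak positions and values are those of the authors' lists. The reproducible (optimal) peaks were drawn from relaxed lists of 30000 candidate peaks for each replicate and for the pooled replicates, and the weaker candidates may be background. Each peak carries a signal value from the authors. Peaks were ranked by it within each list, with rank 1 the highest. The optimal and pooled lists gave the 27 peaks the same signals and ranks, while signals of each replicate were on a scale of their own and are not set beside them. Depth is unknown, as reads were not used here. Summits of 1 locus are not independent replicates.

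The sequences at the strongest summits show where each locus was most enriched. They are the 201 bases centred on the summit of the highest optimal peak of each locus. The next peak of lncRNA:CR44619 was added because both rank among the strongest 25 of the genome. The bases are those of the RefSeq Release 6 genome (dm6), plus strand, 5′ to 3′. Capitals mark matches to the 17 motifs searched on both strands.
lncRNA:CR44619, rank 7, chrX:12751284-12751484: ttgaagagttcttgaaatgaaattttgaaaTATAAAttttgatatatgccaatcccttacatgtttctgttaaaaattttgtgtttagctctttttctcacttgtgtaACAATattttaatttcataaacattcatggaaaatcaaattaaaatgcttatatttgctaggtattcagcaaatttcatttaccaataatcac
lncRNA:CR44619, rank 25, chrX:12752268-12752468: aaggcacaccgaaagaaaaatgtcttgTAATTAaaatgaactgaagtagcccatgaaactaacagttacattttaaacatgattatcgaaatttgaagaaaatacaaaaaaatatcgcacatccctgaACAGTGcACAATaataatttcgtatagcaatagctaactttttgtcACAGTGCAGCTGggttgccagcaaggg
lncRNA:CR44357, rank 181, chrX:7336951-7337151: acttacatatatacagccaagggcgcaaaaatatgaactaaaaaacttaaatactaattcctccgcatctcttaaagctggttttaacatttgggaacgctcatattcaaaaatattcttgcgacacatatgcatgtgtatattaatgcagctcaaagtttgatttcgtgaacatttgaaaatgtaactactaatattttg
lncRNA:CR44999, rank 990, chrX:3482746-3482946: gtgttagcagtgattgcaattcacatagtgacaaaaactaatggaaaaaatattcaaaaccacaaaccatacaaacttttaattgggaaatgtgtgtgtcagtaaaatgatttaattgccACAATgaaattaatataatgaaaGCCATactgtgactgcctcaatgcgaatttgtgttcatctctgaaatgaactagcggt

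All 4 windows were rich in A and T. Their GC content was 24.4% at rank 7, 34.8% at rank 25, 31.3% at rank 181 and 32.8% at rank 990. The window of rank 25 held the most matches, among them ACAGTG starting 28 and 74 bp to the right of the summit and the E-box CAGCTG starting at 80 bp. The window of rank 181 held none of the 17 motifs, which says only that these letters are not in those 201 bases.

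**Figure D1:**
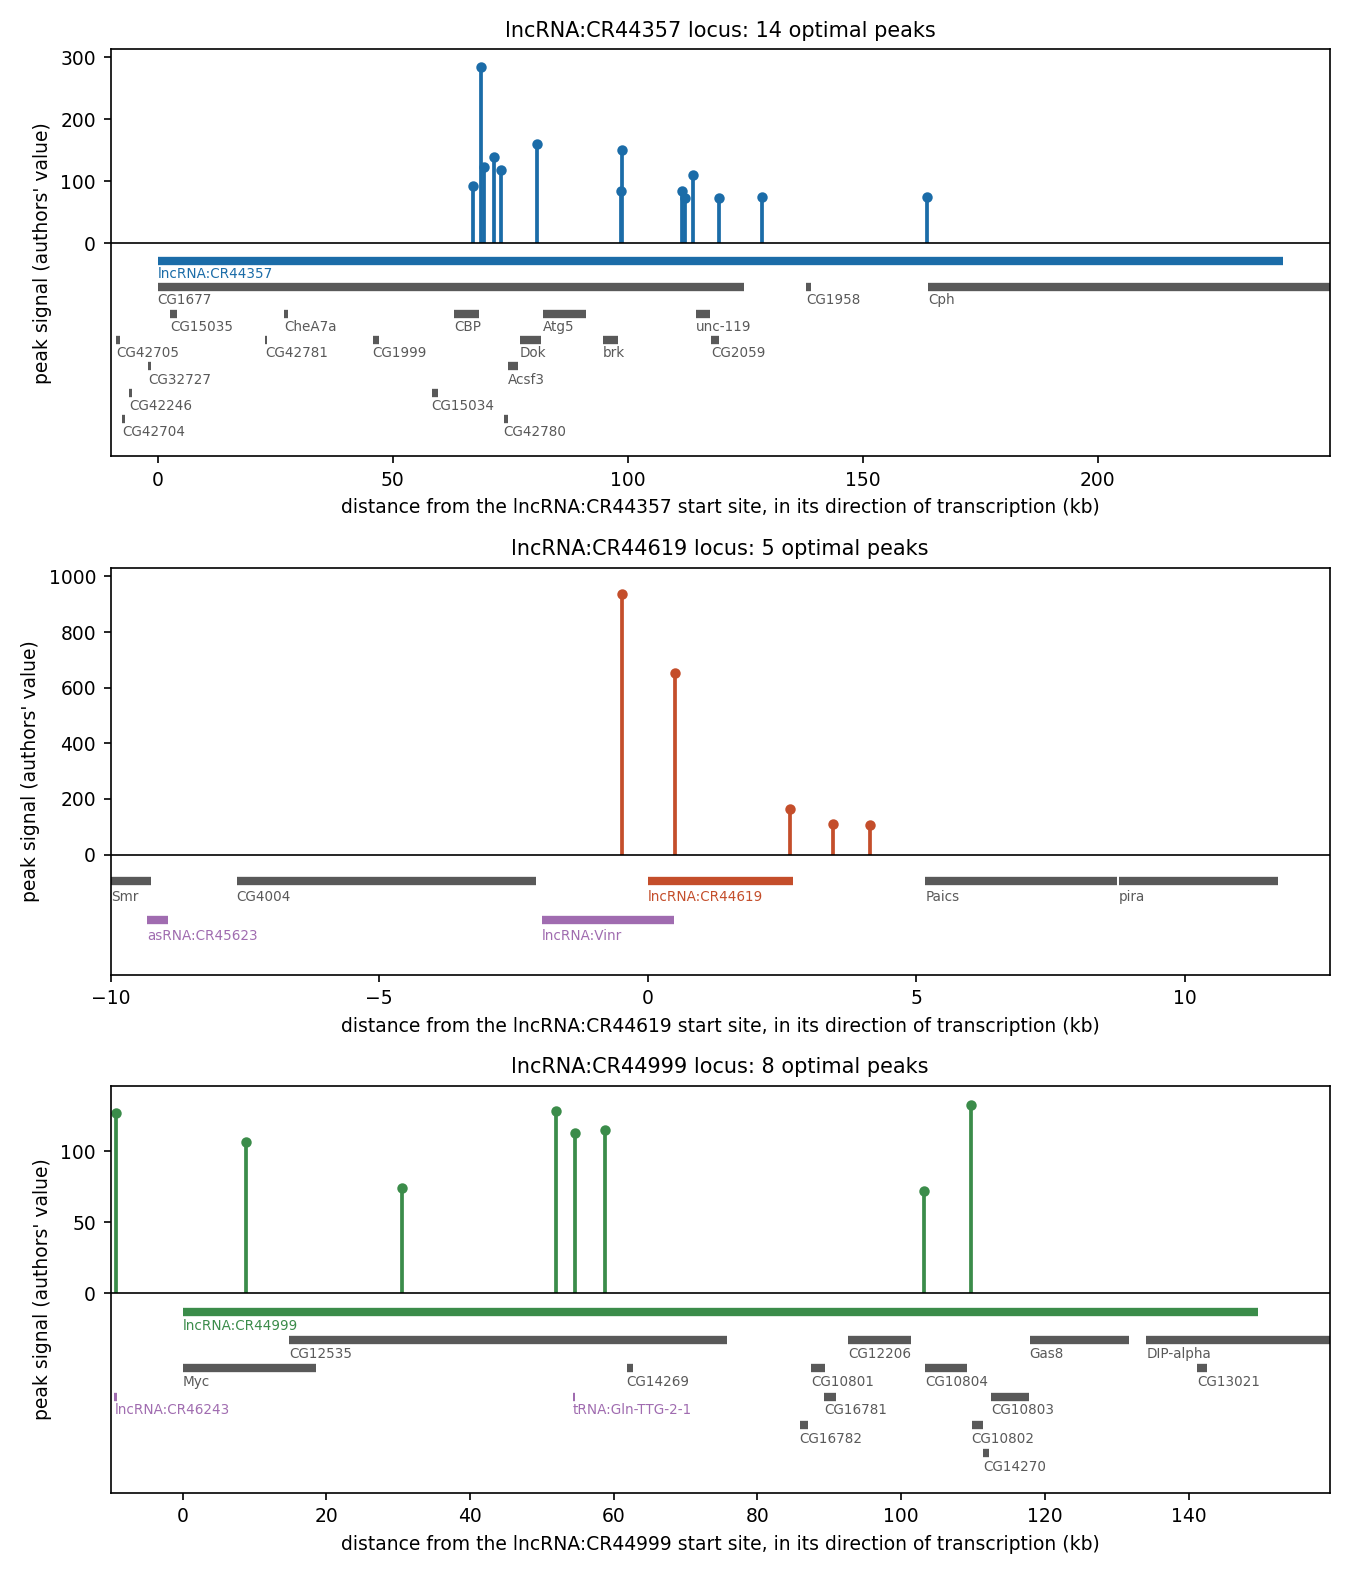
Map of the optimal peaks of each locus, with stems at the summits. The vertical axis is the authors' peak signal, on a scale of its own in each panel, and the horizontal axis the distance from the lncRNA start site in kb. Bars below are genes, coloured for the lncRNA of the panel, grey for protein-coding and purple for other noncoding genes. The highest signal is 938.4 at lncRNA:CR44619, against 284.6 at lncRNA:CR44357 and 132.8 at lncRNA:CR44999.

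The lncRNA:CR44619 locus held the strongest peaks of the 3. The gene (FBgn0265830) runs from 12751867 to 12754571 on the plus strand of X, is 2.7 kb long, and has 2 transcripts from 1 TSS. The highest peak (X from 12751146 to 12751639, signal 938.4) had its summit 483 bp upstream of that TSS, in an exon of lncRNA:Vinr, a lncRNA gene that overlaps the start of lncRNA:CR44619. It ranked 7 in the optimal set, 8 in replicate 1 and 7 in replicate 3. The next peak (X from 12752182 to 12752534, signal 652.3) lay 501 bp downstream of the TSS, in the first exon of lncRNA:CR44619. It ranked 25 in the optimal set, 27 in replicate 1 and 25 in replicate 3. This pair around the start site ranked alike in both replicates.

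Towards and past the 3′ end of lncRNA:CR44619 the peaks were weaker. A peak in the last exon (X from 12754449 to 12754623, signal 162.8), 2644 bp downstream of the TSS, ranked 652 in the optimal set, 684 in replicate 1 and 615 in replicate 3. Of the 2 peaks beyond the gene, the one 3461 bp downstream of the TSS (X from 12755120 to 12755535, signal 110.9) ranked 1371, with ranks of 1162 in replicate 1 and 2122 in replicate 3. The one at 4140 bp (X from 12755799 to 12756214, signal 106.4) ranked 1472, with ranks of 1938 in replicate 1 and 887 in replicate 3. The order of these last peaks was opposite in the 2 replicates, so the lists do not separate them. Neighbouring summits of the locus lay 679 to 2143 bp apart (median 900.5 bp), and all 5 fell within 4.62 kb. Every one of them had the TSS of lncRNA:CR44619 as its nearest. That count was not made over all optimal summits, so it only describes the layout of the locus.

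The 4 protein-coding neighbours of lncRNA:CR44619 had no optimal peak within 1000 bp of a TSS, a position that 20.4% of protein-coding genes in the genome had. They are Smr, which encodes a corepressor of nuclear receptors, CG4004, Paics, a gene of purine synthesis, and pira. The nearest optimal summit lay 4045 bp from a TSS of Smr (rank 3304, outside the 10 kb limit), 5067 bp from CG4004, 4610 bp from Paics and 7604 bp from pira. Weaker pooled peaks stood within 1000 bp of a TSS of each. The highest ranked 4826 for CG4004, 12731 for pira, 15430 for Smr and 16352 for Paics. How many protein-coding genes in the genome have such a weak peak was not determined. At the TSS of lncRNA:Vinr the only pooled peak within 1000 bp ranked 22617, and its nearest optimal summit, that of rank 7, was 1490 bp away.

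A stretch of 124 bp under the peak of rank 1371 occurs again at the locus, on the opposite strand. The copies run from 12755283 to 12755406 and from 12754724 to 12754847 on X, with starts 559 bp apart, and neither overlaps an annotated gene. The window of that summit is shown because bases inside the copies cannot tell them apart, and capitals mark the repeated stretch.
lncRNA:CR44619, rank 1371, chrX:12755228-12755428: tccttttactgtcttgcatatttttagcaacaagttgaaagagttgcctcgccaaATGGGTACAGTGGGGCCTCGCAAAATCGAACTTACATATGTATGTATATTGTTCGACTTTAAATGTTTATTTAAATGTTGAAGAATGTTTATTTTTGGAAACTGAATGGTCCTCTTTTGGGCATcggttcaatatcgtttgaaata

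Over the copy at the summit, 1 peak was called in each of the optimal, pooled and replicate lists. Over the other copy none was called in any of them. Among the 27 windows this was the only one with a 24-base word found again on the chromosome arms, against 4.15% of all optimal windows. How reads within such copies were treated is not given in the sources used here, and its part in this peak was not tested.

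The lncRNA:CR44357 locus held the most optimal summits, all within introns of the lncRNA and none near its start. The gene (FBgn0265457) runs from 7166451 to 7405797 on the minus strand of X, 239.3 kb in all, and its 6 distinct exons cover 2789 bp, or 1.17% of it. Its 3 transcripts start at 1 TSS, which is also a TSS of CG1677. The nearest optimal summit to that TSS was 67044 bp away. All 14 summits lay in a stretch of 96.6 kb between 7242128 and 7338753, which is 40.4% of the gene. The 67.0 kb at the 5′ end of the lncRNA gene held no optimal summit and 4 pooled relaxed ones, the best at rank 15867. The 75.7 kb at its 3′ end, which overlap Cph, a gene for a zinc finger transcription factor, held 9, the best at rank 4678. Over X the pooled list had 2.18 summits per 10 kb, so both stretches lay below that mean.

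Every summit of the lncRNA:CR44357 locus had a protein-coding gene at its nearest TSS, and 12 lay in introns of CG1677, which is transcribed from the same strand. CG1677 itself runs from 7281089 to 7405797, within the lncRNA gene. Neither count was made over all optimal summits, so both only describe the layout of the locus. The closest summit to an exon of the lncRNA stood 689 bp from it (rank 2690). Of the 20 protein-coding genes of the locus, 7 had an optimal summit within 1000 bp of a TSS, against 20.4% of all protein-coding genes. The locus was chosen for its peaks, so nothing is read from that share. The 7 were CG1677, CG2059, unc-119, brk, Dok, CG42780 and CBP. The others were Cph, CG1958, Atg5, an autophagy gene, Acsf3, CG15034, CG1999, CheA7a, CG42781, CG15035, CG32727, CG42246, CG42704 and CG42705, whose nearest optimal summits lay 1263 bp (Atg5) to 75116 bp (CG42705) from a TSS.

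The densest part of lncRNA:CR44357 lay between CG42780 and CBP, a gene for a calcium-binding protein, with 5 summits in 6.03 kb. The strongest peak of the locus (X from 7336909 to 7337197, signal 284.6) stood 301 bp upstream of the TSS of CBP and ranked 181 in the optimal set, 178 in replicate 1 and 203 in replicate 3. A weaker one (X from 7338545 to 7338960, signal 93.0) lay in an intron of CBP and ranked 1873, with ranks of 1640 in replicate 1 and 2630 in replicate 3. Between the genes, the summit 1071 bp upstream of CBP ranked 1133, with 1423 in replicate 1 and 660 in replicate 3. The summit 2145 bp upstream of CG42780 ranked 917, with 772 in replicate 1 and 1401 in replicate 3. The summit 531 bp upstream of CG42780 ranked 1208, with 1312 in replicate 1 and 1320 in replicate 3. The peak at CBP was the highest of the locus in both replicates, and the order of the other 4 differed between them.

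Within lncRNA:CR44357, 2 overlapping peaks stood upstream of brk, which encodes Brinker, a repressor of genes controlled by the signalling protein Dpp. Their summits, 851 and 648 bp upstream of the brk TSS, were 203 bp apart. The first (X from 7306880 to 7307295, signal 150.4) ranked 783 in the optimal set, 1075 in replicate 1 and 529 in replicate 3. The other (X from 7307083 to 7307498, signal 84.8) ranked 2201, with 3051 in replicate 1 and 1623 in replicate 3. Both ranked higher in replicate 3 than in replicate 1, and the peak farther from brk was the higher of the pair in each.

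The peak in an intron of Dok, a gene for an adaptor protein of tyrosine kinase signalling, was the next strongest at lncRNA:CR44357 (X from 7324825 to 7325240, signal 160.0). It ranked 671 in the optimal set, 613 in replicate 1 and 818 in replicate 3, with its summit 819 bp downstream of the TSS. Upstream of unc-119, 3 summits stood at 717, 2400 and 2990 bp. unc-119 is known in worms and humans for carrying lipid-modified proteins. The nearest of the 3 ranked 1399 in the optimal set, 2116 in replicate 1 and 1015 in replicate 3. The farthest ranked 2230, with 2953 in replicate 1 and 1164 in replicate 3. The middle one differed most between the replicates of all 27 peaks, at rank 2054 in replicate 1 and 7026 in replicate 3.

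The remaining peaks of lncRNA:CR44357 lay low in the optimal set. That at CG2059 had its summit 8 bp downstream of the TSS, in the 5′ UTR, and 171 bp from an internal TSS of CG1677. It ranked 2890, with 3606 in replicate 1 and 2472 in replicate 3. The farthest from any TSS, 15673 bp from Cph, ranked 2761. Below the limit of the optimal set, the next pooled peak at the locus ranked 3824 (signal 60.6), against 2895 (signal 72.1) for the last inside it.

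The lncRNA:CR44999 locus held more widely spaced peaks and none as strong as the best of the other loci. Its highest signal was 132.8, against 284.6 at lncRNA:CR44357, while its median signal was 113.6, against 101.3 at lncRNA:CR44357. The gene (FBgn0266350) runs from 3373159 to 3522787 on the plus strand of X, is 149.6 kb long, and has 1 transcript whose 4 exons cover 2025 bp, or 1.35% of it. Its TSS is also that of Myc, which encodes a transcription factor that drives cell growth. Of its 8 optimal summits 7 lay in introns of the lncRNA and 1 upstream of it. Neighbouring summits stood 2576 to 44389 bp apart, with a median of 18073 bp.

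At the start shared by Myc and lncRNA:CR44999 no optimal summit lay within 1000 bp, and the best pooled peak there ranked 11450. The nearest optimal peak (X from 3381725 to 3382140, signal 106.7) stood 8774 bp downstream, in an intron of both genes. It ranked 1469 in the optimal set, 1136 in replicate 1 and 3816 in replicate 3. The next pooled peak below the limit of the optimal set, at rank 3536 (signal 63.8), was also in that intron, 8072 bp downstream of the same TSS. At the other end of the set, the last optimal peak of the locus ranked 2905 (signal 72.0).

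The strongest peak of the lncRNA:CR44999 locus (X from 3482638 to 3483053, signal 132.8) lay between CG10804 and CG10802, 119 bp upstream of the TSS of CG10802 and 524 bp from that of CG10804. It ranked 990 in the optimal set, 1040 in replicate 1 and 829 in replicate 3. The next (X from 3424932 to 3425347, signal 128.5) lay in an intron of CG12535 and ranked 1046, with 1508 in replicate 1 and 716 in replicate 3. The third (X from 3363652 to 3364067, signal 127.0) was the one upstream of the lncRNA, 174 bp downstream of the TSS of lncRNA:CR46243. It ranked 1069, with 849 in replicate 1 and 1805 in replicate 3. These 3 signals were close, and each replicate put a different one of them first.

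CG12535, which runs against lncRNA:CR44999 on the minus strand, held 4 of the summits in its introns. One of them (X from 3427508 to 3427923, signal 112.6) lay 193 bp upstream of tRNA:Gln-TTG-2-1, a glutamine transfer RNA gene within the intron, and ranked 1334, with 1112 in replicate 1 and 1444 in replicate 3. The others ranked 1046, 1290 and 2749, and the last of these ranked 2313 in replicate 1 and 4040 in replicate 3. No optimal summit lay within 1000 bp of a TSS of CG12535. Of the 14 protein-coding genes of the locus, 2 had an optimal summit within 1000 bp of a TSS, against 20.4% of all protein-coding genes. These were CG10802 and CG10804. Nothing is read from that share. The other 12 were Myc, CG12535, CG14269, CG16782, CG10801, CG16781, CG12206, CG14270, CG10803, CG13021, Gas8 and DIP-alpha, a gene for a cell surface protein of the immunoglobulin superfamily. Their nearest optimal summits lay 1747 bp (CG12206) to 31470 bp (CG13021) from a TSS.

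Long parts of lncRNA:CR44999 held weak peaks alone. The 44.4 kb between the summits at 3431882 and 3476271 held no optimal and 20 pooled relaxed summits, the best at rank 4440. The 39.9 kb from 3482846 to the 3′ end held 5, the best at rank 11557. With all relaxed peaks counted, the pooled list had 4.36 summits per 10 kb at lncRNA:CR44999, 2.47 at lncRNA:CR44357 and 7.05 at lncRNA:CR44619, against 2.18 over X.

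The peaks of the 3 loci were found in both replicates. Of the 27, 22 shared at least 1 bp with one of the 3350 strongest peaks of both replicates (81.5%), against 74.4% of all optimal peaks. Reproducibility between these lists is how the optimal peaks were picked, so the share is a description. By locus the counts were 12 of 14 at lncRNA:CR44357, 5 of 5 at lncRNA:CR44619 and 5 of 8 at lncRNA:CR44999. So ranked in replicate 1 alone were 3 peaks, the middle one upstream of unc-119, the one in the Myc intron and the one of rank 2749 in CG12535. In replicate 3 alone there were 2, those at CG2059 and 1747 bp upstream of CG12206. All 27 overlapped a relaxed peak of each replicate, as did nearly all of the 3350 optimal peaks (3348 in replicate 1 and 3347 in replicate 3). Nothing particular to these loci is read from that. The labels call the libraries biological replicates, and nothing says how the embryo collections were separated.

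**Figure D2:**
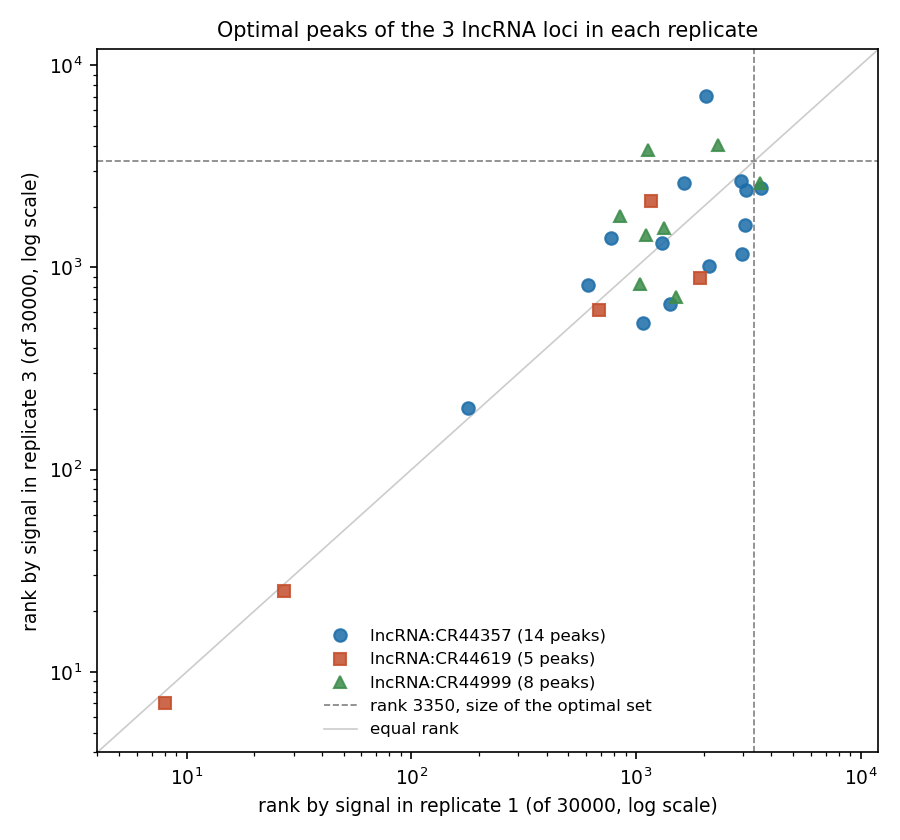
Rank by signal of each of the 27 optimal peaks in replicate 1 (horizontal) and replicate 3 (vertical), both on a log scale, by locus. Dashed lines mark rank 3350 and the grey line equal rank. The pair at the start of lncRNA:CR44619 stands apart at ranks 8 and 27 in replicate 1 and 7 and 25 in replicate 3, and 5 peaks lie beyond a dashed line.

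The loci reached their counts in different ways. At least 1 optimal summit in the gene or within 10 kb was found for 34.0% of lncRNA genes, with a median of 0 summits and a 90th percentile of 2. By count, lncRNA:CR44357 came 1st, lncRNA:CR44999 3rd and lncRNA:CR44619 15th of 1945, the last of these level with other genes that had 5 summits. Among those level genes is the overlapping lncRNA:Vinr, whose gene and flanks hold the same 5 summits. Other lncRNA genes of X with as many or more, such as lncRNA:CR43287 with 7, are not among the members. Per 10 kb of span, gene and flanks together, there were 2.20 optimal summits at lncRNA:CR44619, 0.540 at lncRNA:CR44357 and 0.472 at lncRNA:CR44999, against 0.236 over X and 0.244 over all arms. By that density they came 20th, 320th and 580th. Both long genes lay far lower in density than in count. The 10 kb flanks make up nearly all of a short gene's span. A short gene with 1 summit can therefore pass lncRNA:CR44999 in density. The order by density depends in part on gene length and was not tested.

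**Figure D3:**
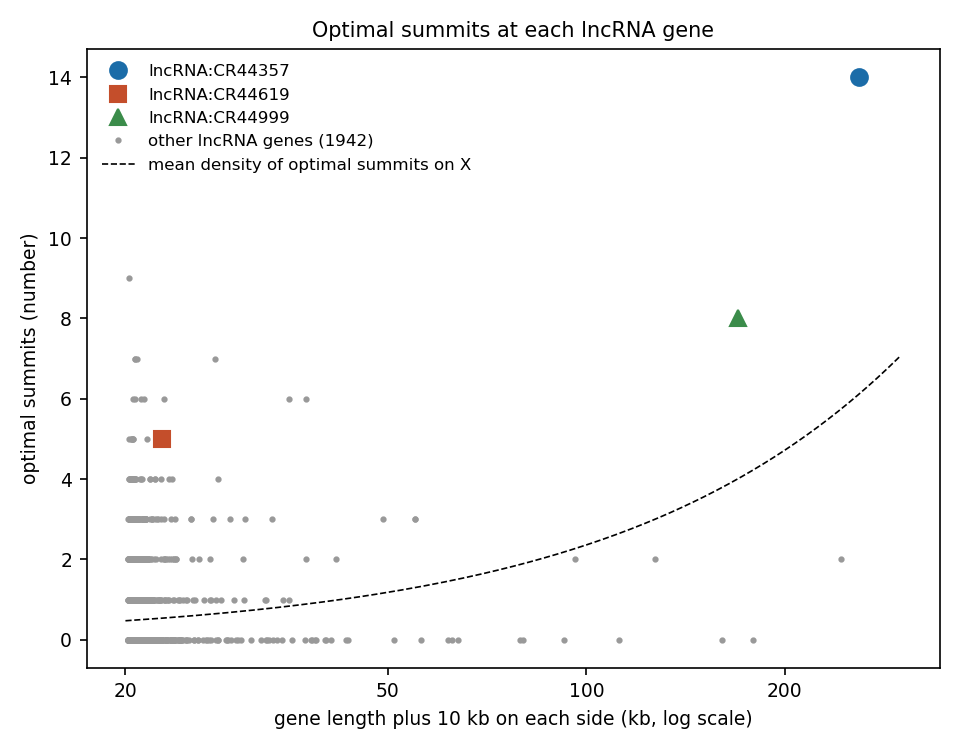
Number of optimal summits (vertical) against gene length plus 10 kb on each side (horizontal, log scale) for each of 1945 lncRNA genes. The dashed curve is the mean density on X, 0.236 per 10 kb. lncRNA:CR44357 (14 summits in 259.3 kb) and lncRNA:CR44999 (8 in 169.6 kb) are among the longest spans, while lncRNA:CR44619 (5 in 22.7 kb) lies among short ones.

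Other long lncRNA genes held fewer optimal peaks, as follows in part from choosing the members for their counts. Of 7 lncRNA genes with a span of at least 100 kb, a limit set after the values were seen, the 5 that are not members held 0 to 2 optimal summits. lncRNA:CR32773 had 2 in 243.7 kb and lncRNA:CR44833 had 2 in 127.2 kb, while lncRNA:flam, lncRNA:CR44997 and lncRNA:iab8 had none. The lncRNA genes most like the members in count, outside the 3 loci, were lncRNA:CR44772 with 9 summits, and lncRNA:CR43287, lncRNA:CR44603, lncRNA:CR44994 and lncRNA:CR46249 with 7 each. All 5 are short, at 0.2 to 7.4 kb, and nearly all of their summits lay in the flanks, with 1 in the body of lncRNA:CR44603 and 0 in the bodies of the others. At lncRNA:CR44619, 2 of 5 summits lay in the gene body. The spans of the 5 other genes were 20.2 to 27.4 kb and lay mostly in the flanks. Where their summits fall therefore depends on gene length, and nothing is read from the difference.

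The summits of the 3 loci lay farther from a TSS than optimal summits in general. Within 1000 bp of any TSS stood 12 of the 27 (44.4%), against 60.5% of optimal summits on X and 68.5% of all. The median distance was 1071 bp for the 27, against 541 bp on X and 264.5 bp over all. By locus 7 of 14 were within 1000 bp at lncRNA:CR44357, 2 of 5 at lncRNA:CR44619 and 3 of 8 at lncRNA:CR44999. Only the 2 at lncRNA:CR44619 belonged to the start of the lncRNA itself. With 500 bp as the limit the 12 became 6. These shares are descriptions of chosen loci and were not tested.

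**Figure D4:**
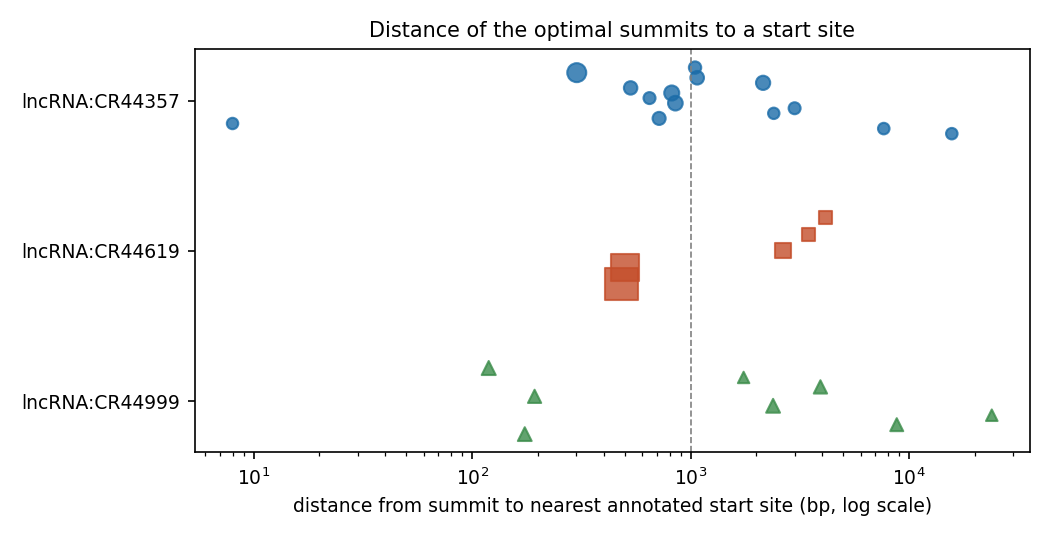
Distance from each optimal summit to the nearest annotated TSS (horizontal, bp, log scale) for the 3 loci, in rows, with the area of a symbol growing with peak signal. Vertical spread within a row is for legibility alone, and the dashed line marks 1000 bp. At lncRNA:CR44619 both strong peaks lie near 500 bp and the 3 weaker ones at 2644 bp or more.

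Summits stood close together at lncRNA:CR44357 and lncRNA:CR44619. Under 2500 bp were 7 of 13 gaps between neighbouring summits at lncRNA:CR44357, 4 of 4 at lncRNA:CR44619 and 0 of 7 at lncRNA:CR44999, against 19.0% of gaps on X. The limit of 2500 bp was set after the values were seen. The median gap was 1945 bp at lncRNA:CR44357, 900.5 bp at lncRNA:CR44619 and 18073 bp at lncRNA:CR44999, against 14914.5 bp on X. Gaps within a locus cannot exceed its span. Close spacing follows in part from the number of summits, which chose the loci.

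The 27 summit windows were somewhat poorer in G and C than other optimal windows. GC content was 32.9% ± 5.34 (SD, 27 windows), against 36.7% ± 6.70 (SD, 555 windows) on X and 36.1% ± 6.62 (SD, 3350 windows) over all arms. The locus means of 33.1% at lncRNA:CR44357, 32.8% at lncRNA:CR44619 and 32.6% at lncRNA:CR44999 differed by less than the SD within a locus. The spread within the loci ran from 23.4% to 47.8%, the highest at the summit near the end of Cph. No window shared a 24-base word with another of the 27.

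The boxes that KLF proteins bind were in few of these windows. CACCC occurred in 2 of the 27 (7.41%), both at lncRNA:CR44357, against 15.3% of all optimal windows. Its count depended on the window, at 1 with 50 bp to each side of the summit and 7 with 200 bp. The share over all optimal windows is for 100 bp to each side and cannot be set against those 2 counts. The GC box GGGCGGG was in none, against 0.657% of all. Among promoter elements, the DRE site TATCGATA was present once, at the peak of rank 2690, against 5.01% of all, and motif 1, GGTCACACT, was in none, against 2.09%. The CTCF site AGGTGGCGC was in 1 window, that of the summit 15673 bp from a TSS of Cph, against 0.627% of all. Such counts rest on 1 or 2 windows.

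The commonest of the 17 motifs was a short one rich in A and T. This was ACAAT, the core of Sox sites, found in 16 of 27 windows (59.3%), against 51.5% of all optimal windows. TATAAA was in 13 (48.1%), against 34.2%. The word ACAGTG was in 10 (37.0%), against 26.8% on X and 19.0% over all. By locus it was in 6 of 14 at lncRNA:CR44357, 3 of 5 at lncRNA:CR44619 and 1 of 8 at lncRNA:CR44999. With 50 bp in place of 100 bp to each side of the summit, ACAGTG was in 4 windows, TATAAA in 6 and ACAAT in 13. Shares over all optimal windows are given for 100 bp alone. Counts at 50 or 200 bp therefore cannot be set against them. The Pho core GCCAT was in 8 windows (29.6%), near its 26.2% over all, with 3 at 50 bp and 13 at 200 bp to each side. The word ACACTG was in 3 windows (11.1%), against 19.9% of all. The E-box CAGCTG was in 2 (7.41%), against 10.3%, the homeodomain word TAATTA in 2 (7.41%), against 16.3%, and the forkhead word TGTTTAC in 1, against 8.09%. The remaining motifs were in none of the 27, against 3.64% of all for the GAGA factor word GAGAGAG, 0.896% for the Zelda word CAGGTAG, 6.66% for the Tead word CATTCC and 12.6% for the word CGATAG. No window held CGATAG at 50 or 200 bp to each side either. With 200 bp to each side the word ACACTG was in 5 windows, the E-box in 5, the homeodomain word in 6, the Tead word in 4 and the GAGA factor word in 2. CGATAG can overlap the DRE, and ACACTG can overlap motif 1 or, on the opposite strand, the word ACAGTG. A match is not a site of any factor.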

How the data were processed

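Peak lists of 2 anti-GFP ChIP-seq libraries (replicates 1 and 3) were used on dm6, per the labels, whose descriptions name anti-GFP while their antibody field names Bteb2. Per the notes deposited beside the files, the relaxed lists were made for each replicate and for the pool, and the optimal set by the irreproducible discovery rate from them. Each relaxed list was called against a further common file that was not analysed here. Names of the aligner and peak caller and the thresholds were not given in the sources used here. Peaks were ranked by the authors' signal value, which was not compared between replicates or between a replicate and the pool. The optimal and pooled lists gave the members' peaks the same signals. The −log10 q-value deposited by the authors was 3.95 in every optimal peak. Lists on dm3 were not used here.

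Summits (1-based) were set against Ensembl release 115 genes without transposable elements, and 201 bp windows against the RefSeq Release 6 sequence of the same build. A locus is the gene plus 10 kb on each side. A peak's rank in a replicate is that of the overlapping peak (1 bp or more) with the closest summit. Genes were named by a rule: the members, the protein-coding genes of their loci, noncoding genes there that a summit lies in or has as its nearest TSS, and the 5 other lncRNA genes of highest count. The 3 strongest peaks of each locus were given in full and the window of the strongest was printed. The printed repeat, the peak of rank 25, the 2500 bp spacing limit and the long lncRNA genes were chosen after their values were seen. Members, lists and settings were chosen with earlier results of these data known. No test was made. Functions were tested on simulated data. Python 3.11.15, NumPy 2.4.6, pandas 2.3.3 and matplotlib 3.10.9 were used.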

Additional observations from a re-analysis of the deposited data

How the results depend on the processing

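The counts of optimal summits per locus moved most with a stricter list. With the strongest 1000 optimal peaks alone, 4 of 14 were left at lncRNA:CR44357, 3 of 5 at lncRNA:CR44619 and 1 of 8 at lncRNA:CR44999, as fewer peaks must give. With 1 replicate left out, and as many of the strongest peaks of the other counted, the loci held 13 to 15, 5 to 5 and 6 to 8 summits. With 500 bp in place of 1000 bp, 6 in place of 12 summits were near a TSS. Flanks of 5 or 20 kb, summits within 200 bp counted as one, summits within 100 bp as the rule for a shared peak, all relaxed peaks of a replicate and windows of 50 or 200 bp to each side moved no other count by over 1.5 times, in 24 of 28 alternatives in all. Over single motifs 14 of 34 alternatives moved by more. All 34 were windows of 50 or 200 bp to each side. A narrower window can only lose matches and a wider one only gain them, and nothing beyond that was tested. No paired analysis was possible because there is 1 group. Depth is unknown, so how it limits weak peaks was not determined.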
